A study of Homo sapiens with 6 samples.

Results

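The EGF receptor family and its ligands were followed by polyA RNA sequencing in MDA-MB-231GlnIND (GlnIND) cells and in parental MDA-MB-231 cells. The genes were taken by symbol from the deposited count tables, and all 9 were found among 28265 gene rows: the receptors EGFR, ERBB2 and ERBB3, and the ligands AREG, EREG, HBEGF, TGFA, BTC and NRG1. MDA-MB-231 is a widely used line of triple-negative human breast cancer cells. GlnIND is its glutamine-independent derivative, kept for more than 6 weeks in RPMI medium without glutamine and with 10% dialysed fetal bovine serum. Parental cells grew in RPMI medium that supplied glutamine, with 10% undialysed fetal bovine serum. Cell population, glutamine supply and kind of serum thus differed together and cannot be told apart. Each group had 3 libraries. The labels do not say whether these were separate cultures or whether GlnIND is 1 clone, so every p-value rests on a spread between libraries that may be no more than technical. No genetic change or drug is named in the labels of either group.

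The family has 4 receptor tyrosine kinases that signal as pairs after a ligand has bound. EGFR binds AREG, TGFA and EGF, and HBEGF, EREG and BTC bind ERBB4 as well. ERBB3 and ERBB4 bind the neuregulins, ERBB3 has little kinase activity of its own, and ERBB2 has no known ligand and serves as the partner of the others. The ligands are made as membrane proteins, and proteases of the ADAM family cut most of them loose. MDA-MB-231 cells are known for abundant EGFR, and the triple-negative label refers to low oestrogen and progesterone receptor and to ERBB2 that is not amplified.

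Total counts ranged from 21276815 to 24594248 in GlnIND libraries and from 18256219 to 21741371 in parental libraries. Levels are in CPM, read counts scaled to library size with TMM composition factors, and a positive log2 fold change means higher in GlnIND cells. Each change has its standard error (SE). Values near 0 are compared with a floor of 6 counts, which stands for 3 read pairs and equals 0.23 to 0.269 CPM in a GlnIND library and 0.298 to 0.343 CPM in a parental library. Of the markers of this line, VIM, CD44, ZEB1, CAV1 and AXL all averaged above 100 CPM in both groups. ESR1 had 14 counts in GlnIND and 6 in parental libraries, and PGR had 8 and 2. Markers of other cells were mixed: CD3E, ALB and INS had 0 counts, PTPRC had 9 and 5, CDH5 had 4 and 2, PECAM1 averaged 4.34 and 2.41 CPM, and CD68 averaged 177 and 178 CPM in GlnIND and parental cells. In bulk RNA, fewer cells with a transcript and less of it per cell cannot be told apart.

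Among the 9 genes, the 3 receptors and 3 of the 6 ligands moved in opposite directions. The 3 receptors rose in GlnIND cells, ERBB3 by 2.06-fold, ERBB2 by 1.76-fold and EGFR by 1.29-fold. The ligands NRG1, HBEGF and EREG fell, and parental cells held 2.01-fold, 1.72-fold and 1.58-fold as much of them. TGFA and BTC did not pass the test, and AREG had too few counts to be tested. So 8 of the 9 genes were tested and 6 were called, at an adjusted p under 0.05 in edgeR's quasi-likelihood test, against 56.3% of all 13949 tested genes. The 3 that rose stand against 28.4% of tested genes that rose, and the 3 that fell against 27.9%. The median log2 fold change of the 8 tested genes was 0.06, against 0.03 over all tested genes. The 9 genes were chosen with earlier results of these data known. Outside them, the scarcer family ligands EGF and NRG2 rose, with log2 fold changes of 1.23 and 1.36.

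The sequences before the start sites of EGFR and of the 3 tested ligands with over 1000 counts in each group and a RefSeq promoter entry are shown. EGFR rose, HBEGF and EREG fell, and TGFA was not called. ERBB2, which also rose, is not shown. RefSeq (GRCh38.p14) had an entry for 7 of the 9 genes. Each run is the 250 bases just before the RefSeq start, 5′ to 3′ on the gene's strand, at chr7:55018767-55019016 (plus) for EGFR, chr5:140346604-140346853 (minus) for HBEGF, chr4:74364895-74365144 (plus) for EREG and chr2:70553827-70554076 (minus) for TGFA. Capitals mark a GC box (GGGCGG) or a TATA box (TATAAA) on either strand.
EGFR: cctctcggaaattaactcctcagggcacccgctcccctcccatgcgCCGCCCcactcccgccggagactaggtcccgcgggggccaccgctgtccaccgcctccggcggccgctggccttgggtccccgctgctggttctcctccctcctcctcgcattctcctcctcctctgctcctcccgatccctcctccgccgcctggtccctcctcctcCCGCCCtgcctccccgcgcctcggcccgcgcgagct
HBEGF: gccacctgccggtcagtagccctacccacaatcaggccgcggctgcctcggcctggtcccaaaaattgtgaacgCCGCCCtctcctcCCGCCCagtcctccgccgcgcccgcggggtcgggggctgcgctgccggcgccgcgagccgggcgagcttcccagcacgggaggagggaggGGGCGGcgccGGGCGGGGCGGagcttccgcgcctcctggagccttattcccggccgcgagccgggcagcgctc
EREG: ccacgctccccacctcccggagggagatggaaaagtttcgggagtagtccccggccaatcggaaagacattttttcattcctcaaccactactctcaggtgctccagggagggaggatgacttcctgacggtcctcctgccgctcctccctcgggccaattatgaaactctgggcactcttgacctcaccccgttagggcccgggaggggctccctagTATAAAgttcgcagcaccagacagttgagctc
TGFA: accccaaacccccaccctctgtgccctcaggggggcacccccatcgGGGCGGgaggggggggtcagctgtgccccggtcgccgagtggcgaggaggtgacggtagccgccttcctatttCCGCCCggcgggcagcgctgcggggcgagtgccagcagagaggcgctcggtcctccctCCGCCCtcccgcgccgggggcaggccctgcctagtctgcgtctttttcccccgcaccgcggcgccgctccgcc
HBEGF, which fell, had 5 GC boxes, 2 of which overlap by 1 base, EGFR, which rose, had 2, and TGFA had 3. EREG had none and held a TATA box that begins 32 bases before the start. Over 35116 windows of this length, 42.6% held a GC box and 10.7% a TATA box. The window was 73.6% G and C in EGFR, 76.4% in HBEGF, 75.6% in TGFA and 58% in EREG, against a median of 58% over all windows. None of the 4 windows held an AP-1 site (TGANTCA), a CRE (TGACGTCA) or an ETS core (CCGGAA), which 6.57%, 1.65% and 14.5% of all windows hold. A match describes these letters only.

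EGFR, the receptor for most ligands of the set, had 458, 452 and 464 CPM in GlnIND libraries and 382, 351 and 335 CPM in parental libraries. All GlnIND libraries lay above all parental libraries. The means were 458 ± 6.08 and 356 ± 23.7 CPM (SD, n = 3 each), and the log2 fold change was 0.36 (edgeR adjusted p = 0.00108, SE 0.0654). It was the smallest change of the 3 tested receptors, with a 95% interval of 1.16-fold to 1.42-fold. The antisense gene EGFR-AS1 covers 1.64% of the EGFR exon length in GENCODE v29 and had 9 and 6 counts in GlnIND and parental libraries.

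ERBB2, the receptor without a ligand, had 65.2, 61.8 and 64.0 CPM in GlnIND libraries and 31.5, 35.5 and 41.4 CPM in parental libraries. The groups did not overlap, and the parental libraries were the more scattered. It averaged 63.7 ± 1.74 CPM in GlnIND cells and 36.1 ± 4.95 CPM in parental cells (SD, n = 3 each), with a log2 fold change of 0.82 (edgeR adjusted p = 0.000112, SE 0.101). PGAP3 lies on the opposite strand and shares 3.43% of the ERBB2 exon length. PGAP3 had 557 GlnIND and 223 parental counts, against 4607 and 2052 for ERBB2. The strand setting of the counting was not given, so their reads cannot be told apart where the exons overlap.

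ERBB3, which binds neuregulins and signals through its partner's kinase, had 11.1, 10.6 and 11.2 CPM in GlnIND libraries and 5.7, 5.21 and 5.09 CPM in parental libraries. The 2 groups were far apart for the spread within them. Its log2 fold change of 1.04 (edgeR adjusted p = 9.37e-05, SE 0.126) was the largest of the 3 tested receptors. ERBB4, the other neuregulin receptor, had 12, 7 and 12 counts in GlnIND libraries and 0 in each parental library. It did not pass the filter on low counts. With 6 counts set for the whole parental group in place of 0, GlnIND cells held 4.06-fold as much ERBB4. That ratio has no counting interval and is not a lower limit.

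NRG1, the neuregulin that binds ERBB3 and ERBB4, fell the most. It had 84.3, 91.6 and 94.7 CPM in GlnIND libraries and 201, 172 and 172 CPM in parental libraries. Every GlnIND library lay far below every parental library. The means were 90.2 ± 5.37 and 182 ± 16.5 CPM (SD, n = 3 each), and the log2 fold change was -1.01 (edgeR adjusted p = 7.86e-06, SE 0.0818). NRG1 has many isoforms, which counts per gene do not separate.

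HBEGF, a ligand that binds heparan sulfate and stays partly on the cell surface, had 81.5, 76.8 and 76.7 CPM in GlnIND libraries and 145, 129 and 129 CPM in parental libraries. The groups were clearly apart, with 1 parental library above the other 2. The log2 fold change was -0.78 (SE 0.0723, edgeR adjusted p = 1.88e-05). EREG, a low-affinity ligand, had 59.3, 56.8 and 61.4 CPM in GlnIND libraries and 103, 94.8 and 83.4 CPM in parental libraries. It too was lower in every GlnIND library, with a log2 fold change of -0.66 (edgeR adjusted p = 0.00016, SE 0.0873), and of -0.41 with a trend over GC content removed.

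TGFA, a high-affinity EGFR ligand, had 41.5, 43.4 and 42.2 CPM in GlnIND libraries and 42.5, 49.7 and 48.4 CPM in parental libraries. Parental 1 lay within the GlnIND range. The log2 fold change of -0.15 did not pass the test (95% interval -0.33 to 0.04, edgeR adjusted p = 0.168). Without parental 1 it was -0.22 and passed (edgeR adjusted p = 0.00582), and with library totals in place of TMM it was 0.01. BTC, or betacellulin, was scarce, at 1.43, 1.79 and 1.73 CPM in GlnIND libraries and 1.19, 1.37 and 1.56 CPM in parental libraries. Its ranges overlapped, and the log2 fold change of 0.27 had an interval of -0.29 to 0.82 (edgeR adjusted p = 0.381).

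AREG, or amphiregulin, had 8, 5 and 10 counts in GlnIND libraries and 10, 12 and 8 in parental libraries. These counts lie near the floor, and the GlnIND to parental ratio of 0.602 had a 95% counting interval of 0.269 to 1.44. The hg19 assembly named by the submitters carries a near-identical second copy of AREG, known as AREGB, for which the tables have no row. If reads that match both copies were not counted, the tables understate AREG. Its level is therefore uncertain.

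**Figure D1:**
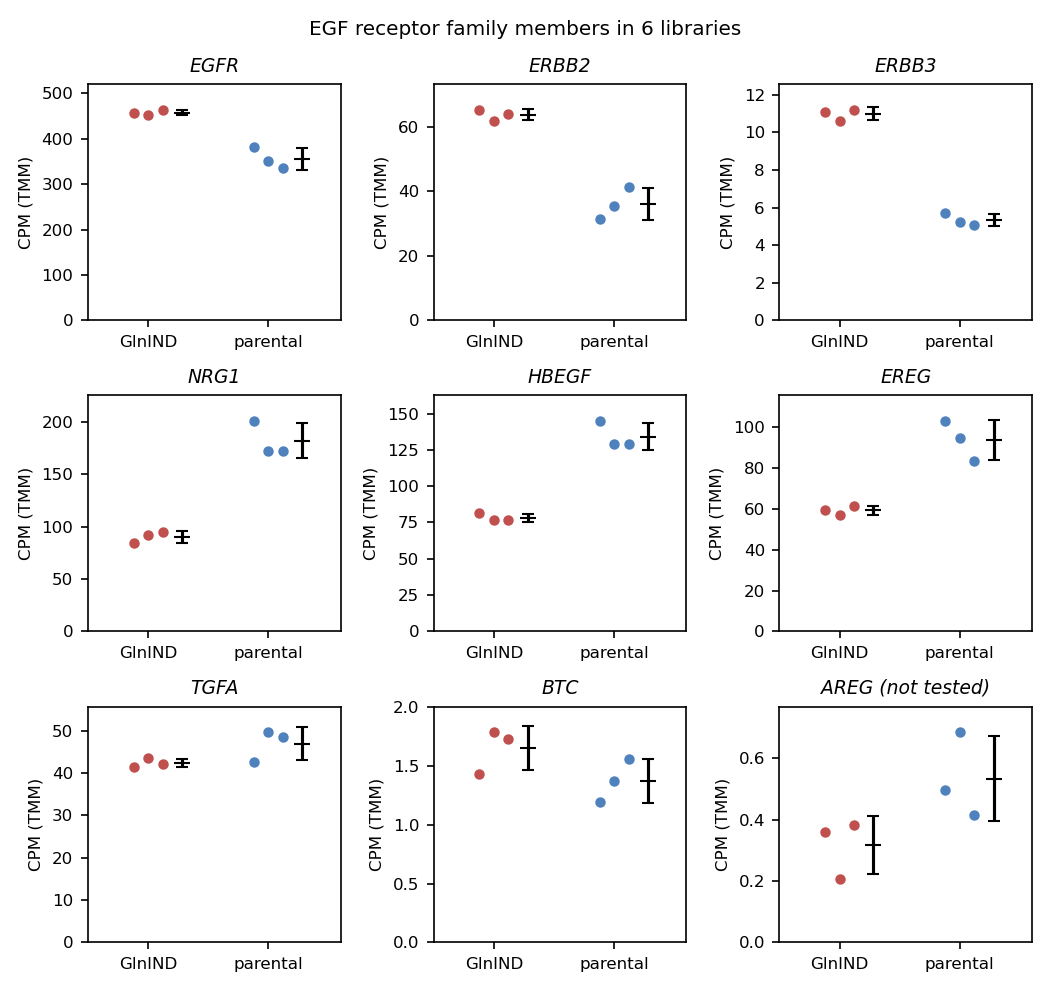
CPM (TMM) of the 9 genes in each library, with the 3 GlnIND libraries in red on the left and the 3 parental libraries in blue on the right of each panel, axes from 0; black bars are mean ± SD. GlnIND libraries lie above parental libraries for EGFR, ERBB2 and ERBB3, below them for NRG1, HBEGF and EREG, and overlap them for TGFA and BTC.

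For the 6 called genes GlnIND and parental ranges were separate, as they were for 65% of all tested genes. The 3 receptors were among 33.7% of tested genes with every GlnIND library higher, and the 3 ligands among 31.3% with every GlnIND library lower. Parental libraries were more scattered than GlnIND libraries for these 6. Their coefficient of variation was 6.08% to 13.7% in parental cells, and 1.33% to 5.96% in GlnIND cells. The value of ERBB2 in parental cells was the most variable of the 6.

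Ratios of 2 genes within a library do not depend on the scaling. For each NRG1 count per ERBB3 count, the ratio was 7.58, 8.63 and 8.42 in GlnIND libraries and 35.2, 33 and 33.8 in parental libraries. This was the widest of 11 ratios, with a log2 difference of -2.05. Relative to EGFR, the log2 difference was -1.37 for NRG1, -1.14 for HBEGF, -1.02 for EREG and -0.51 for TGFA, and it was 0.46 for ERBB2 and 0.68 for ERBB3. In these 7 ratios the groups did not overlap, which gives an exact two-sided permutation p of 0.1, the smallest that 3 against 3 libraries allow (0.122 adjusted over the 11 ratios). For NRG1 to ERBB3, and for NRG1, HBEGF and EREG to EGFR, the CPM ranges of both genes were already separate in opposite directions. Their ratios therefore had to separate, and that p adds nothing to the results of the single genes. The ratio of EREG to HBEGF was 0.728, 0.739 and 0.8 in GlnIND libraries and 0.708, 0.734 and 0.647 in parental libraries, and these ranges overlapped (exact permutation p = 0.2).

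Levels were compared between genes as CPM per kilobase of merged exons in GENCODE v29, which may not be the annotation behind the counts. In GlnIND cells EGFR led with 40.4 ± 0.536 CPM per kb, before HBEGF with 32.8 ± 1.15 (SD, n = 3 each). In parental cells HBEGF led with 56.4 ± 3.94 CPM per kb, before EGFR with 31.4 ± 2.09 (SD, n = 3 each). EREG followed in both groups, at 12.8 CPM per kb in GlnIND and 20.3 CPM per kb in parental cells. Next in GlnIND cells were ERBB2 (11.2), NRG1 (9.79), TGFA (8.83), ERBB3 (1.48), BTC (0.586) and AREG (0.256 CPM per kb), and no neighbours in that order overlapped. Next in parental cells were NRG1 (19.7), TGFA (9.77), ERBB2 (6.38), ERBB3 (0.718), BTC (0.488) and AREG (0.43 CPM per kb), where EREG and NRG1 overlapped, as did BTC and AREG. Per kilobase, ERBB2 thus stood above NRG1 and TGFA in GlnIND cells and below both in parental cells. In CPM, ERBB2 and TGFA also changed order (63.7 and 42.4 in GlnIND, 36.1 and 46.9 in parental cells). But NRG1 stayed above ERBB2 in GlnIND cells in CPM (90.2), and EGFR above HBEGF in parental cells (356 against 134). Those 2 changes of order thus depend on the merged exon lengths, which pool all isoforms of a gene.

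Summed per kilobase, the 4 receptor genes reached 52.3 to 53.8 CPM per kb in GlnIND libraries and 37.6 to 40 in parental libraries. The 11 ligand genes of the family, EGF, EPGN and NRG2 to NRG4 included, reached 66.5 to 67.5 CPM per kb in GlnIND libraries and 103 to 116 in parental libraries. EGFR made up 75.6% to 76.3% of the receptor sum in GlnIND and 78.7% to 84.2% in parental libraries. ERBB2 made up 20.9% to 21.5% and 13.9% to 19.5%, and ERBB3 2.73% to 2.81% and 1.83% to 1.92%. Among ligands the share of NRG1 was 13.6% to 15.3% in GlnIND and 17.7% to 18.8% in parental libraries, and that of TGFA was 12.8% to 13.6% and 7.66% to 9.83%. HBEGF held the largest share per kilobase in every library, 47.8% to 50.6% in GlnIND and 51.4% to 52.7% in parental libraries. In counts NRG1 exceeded HBEGF in every library, so this rank depends on the merged exon lengths (9211 bases for NRG1, 2386 for HBEGF). The sums follow from the single genes and were not tested.

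**Figure D2:**
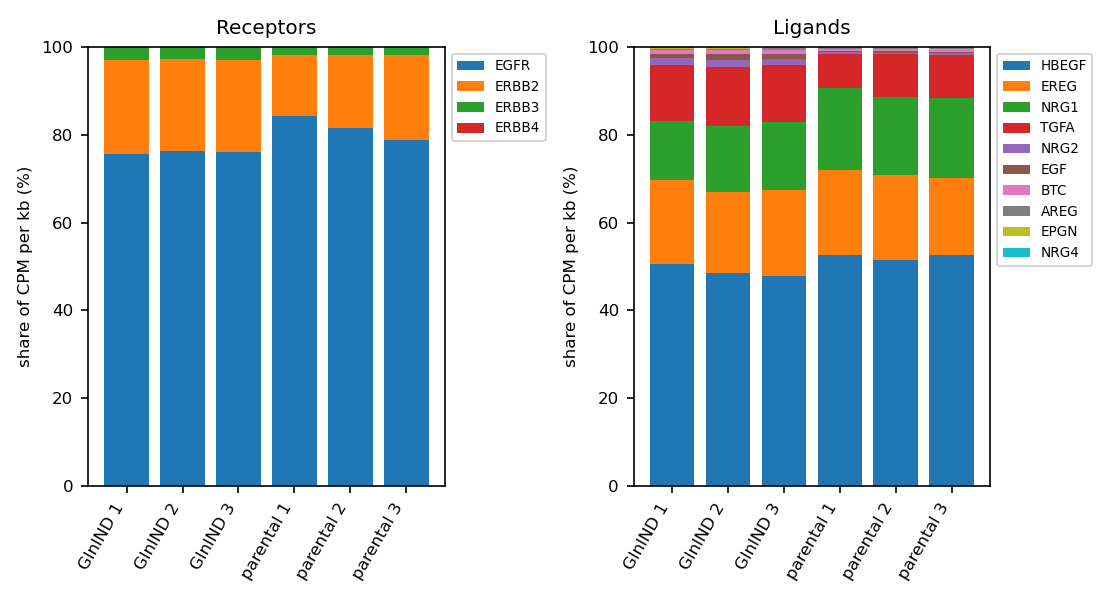
Share (%) of each gene in the summed CPM per kb of the receptors (left panel) and the ligands (right panel), 1 bar per library, GlnIND libraries left of parental libraries. EGFR is the largest receptor share and HBEGF the largest ligand share in all 6 libraries, and the TGFA share is larger in each GlnIND library (12.8% to 13.6%) than in any parental library (7.66% to 9.83%).

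Of the 6 other genes of the family, EGF and NRG2 were tested and both rose. EGF, the ligand that gave the family its name, had 3.32, 4.41 and 3.65 CPM in GlnIND libraries and 1.79, 1.37 and 1.66 CPM in parental libraries, which is 2.35-fold higher (log2 1.23, SE 0.215, edgeR adjusted p = 0.000902). NRG2, a neuregulin, had 4.04, 4.29 and 3.84 CPM in GlnIND libraries and 1.98, 1.26 and 1.46 CPM in parental libraries, which is 2.57-fold higher (log2 1.36, SE 0.217, edgeR adjusted p = 0.000536). Both were low next to the ligands that fell. EGF made up 1.01% to 1.36% of the ligand sum per kilobase in GlnIND and 0.267% to 0.331% in parental libraries. EPGN, or epigen, had 14 GlnIND and 2 parental counts (ratio 5.5, 95% counting interval 0.707 to 248), NRG4 had 9 and 9, and NRG3 had 0 in all libraries.

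Genes that lie side by side can shift together, so the surroundings of each gene were examined. For each tested gene the 40 nearest tested genes in RefSeq order were taken. The 40 genes around EGFR on chromosome 7 had a median of -0.25 on the log2 scale, and 16 of them fell while 3 rose. The windows of ERBB3 on chromosome 12 and BTC on chromosome 4 had medians of -0.25 and -0.24. Around ERBB2 on chromosome 17 the median was 0.25, with 17 genes higher and 6 lower. Its direct neighbours PGAP3 and MIEN1 stood at 0.98 and 0.97, both above ERBB2 itself. Around NRG1 on chromosome 8 the median was 0.05, and all 40 neighbours lay above NRG1. Around HBEGF on chromosome 5 it was 0.10, and 38 of 40 lay above HBEGF, while the window of EREG had a median of -0.18, with 32 of 40 above EREG. With the window median subtracted, EGFR stood at 0.61 (adjusted p = 6.34e-05), ERBB2 at 0.57 (0.00134), ERBB3 at 1.30 (3.48e-05), NRG1 at -1.06 (8.2e-06), HBEGF at -0.88 (1.26e-05) and EREG at -0.48 (0.0015). These p-values treat the removed shift as known.

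**Figure D3:**
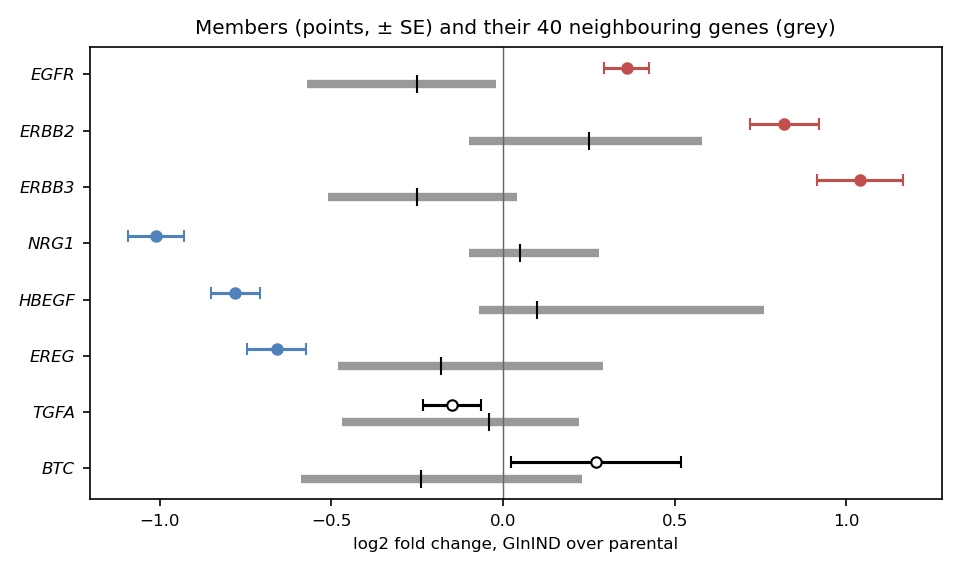
Log2 fold change (GlnIND over parental) of the 8 tested genes with SE, red for higher, blue for lower and open for not called; the grey bar below each spans the middle part (quartiles) of its 40 neighbouring genes and the tick is their median. The receptors lie right of their neighbours' quartiles, and NRG1, HBEGF and EREG lie left of them.

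The proteins that cut and hold the ligands moved both ways. Of 12 genes of ligand shedding 4 rose, 6 fell and 2 did not pass, and 5 were called with the neighbour shift removed. Of all tested genes 28.4% rose and 27.9% fell (56.3% called), and their median log2 fold change was 0.03, against -0.23 for these 12. TIMP3, an inhibitor of ADAM17, had 129, 141 and 132 CPM in GlnIND libraries and 512, 517 and 500 CPM in parental libraries. Its log2 fold change of -1.93 (edgeR adjusted p = 4.11e-08, SE 0.0626) was the largest in size among the called genes named from the pathway lists. ADAM9, a protease of the same family, fell by 0.54, and RHBDF2, which helps ADAM17 to mature, fell by 0.59. RHBDF1 of the same list, looked up outside the naming rule, rose by 0.46 (edgeR adjusted p = 0.0224). ADAM12, reported to cut HBEGF, rose by 0.82 (SE 0.286, edgeR adjusted p = 0.0323), with ranges that overlapped. The ADAM12 call was lost without GlnIND 2 (edgeR adjusted p = 0.111), GlnIND 3 (0.122) or parental 3 (0.106), in DESeq2 (0.0582) and with the neighbour shift removed (0.0739). ADAM17 and ADAM10, the main sheddases, were looked up outside the naming rule. ADAM17 averaged 82 and 91.4 CPM in GlnIND and parental cells (edgeR adjusted p = 0.118). ADAM10 fell by 0.36 (edgeR adjusted p = 0.00188), a call lost with the GC trend removed (-0.17, 0.0626).

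Among 18 adaptors and enzymes that bind active receptors, 4 rose, 4 fell and 10 did not pass, with a median log2 fold change of 0.02. The 8 called stand against 56.3% of all tested genes called, and the median against 0.03. Without parental 1, 13 were called. VAV2, a guanine nucleotide exchange factor, and PTPN11, the phosphatase SHP2, fell by 0.60 and 0.52 (log2), and stood at -0.35 and -0.23 with the neighbour shift removed. SHC1, an adaptor of phosphorylated receptors, rose by 0.33, a call lost with the GC trend removed (0.16, adjusted p = 0.129 from a t distribution).

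Genes that restrain the receptors or take them into the cell also moved both ways. Of 20 tested genes, out of 21, 9 rose, 6 fell and 5 did not pass, with a median log2 fold change of 0.20, against 28.4% that rose, 27.9% that fell and a median of 0.03 over all tested genes. The called genes numbered 9 with the neighbour shift removed. LRIG1, a membrane protein that promotes receptor degradation, had 29.5, 31.8 and 29.8 CPM in GlnIND libraries and 10.5, 10.2 and 11.5 CPM in parental libraries. It rose by 2.83-fold (edgeR adjusted p = 2.37e-06). HGS, which sorts ubiquitinated receptors in endosomes, rose by 0.88, and by 0.53 with the neighbour shift removed. CBL, a ubiquitin ligase of EGFR, and PTPRJ, a receptor phosphatase, fell by 1.22 and 1.21. CBLB of the same list, looked up outside the naming rule, rose by 0.36 (edgeR adjusted p = 0.0315). With that shift removed CBL stood at -0.32 (adjusted p = 0.0026 from a t distribution, with the shift treated as known) and PTPRJ at -1.23. ERRFI1, which inhibits the EGFR kinase, and RNF41, a ubiquitin ligase of ERBB3, were named after their values had been seen. ERRFI1 fell by 0.85 (SE 0.0615, edgeR adjusted p = 3.95e-06) and stood at -0.53 with the neighbour shift removed. RNF41 fell by 0.41 (edgeR adjusted p = 0.00721), a call lost with library totals (-0.26, adjusted p = 0.0708) and after the shift of its neighbours was taken out (-0.14, adjusted p = 0.297).

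Of 10 transcripts known to respond to ERK signalling, 3 rose, 4 fell and 3 did not pass, with a median log2 fold change of -0.11. Over all tested genes 28.4% rose and 27.9% fell, with a median of 0.03. PHLDA1, an early response gene, had 368, 362 and 398 CPM in GlnIND libraries and 786, 762 and 743 CPM in parental libraries. PHLDA1 stood at a log2 fold change of -1.02 (edgeR adjusted p = 1.58e-06, SE 0.063), and SPRY4, an inhibitor of receptor signalling, fell by 0.68. EPHA4, an ephrin receptor, rose by 1.65, and CCND1, the cyclin D1 gene, rose by 0.73. CCND1 stood at 0.17 with the neighbour shift removed (adjusted p = 0.0441 from a t distribution, with the shift treated as known). The ERK phosphatase gene DUSP6, looked up outside the naming rule, fell by 0.34 (edgeR adjusted p = 0.00447), a call lost with the neighbour shift removed (-0.19, 0.0762).

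**Figure D4:**
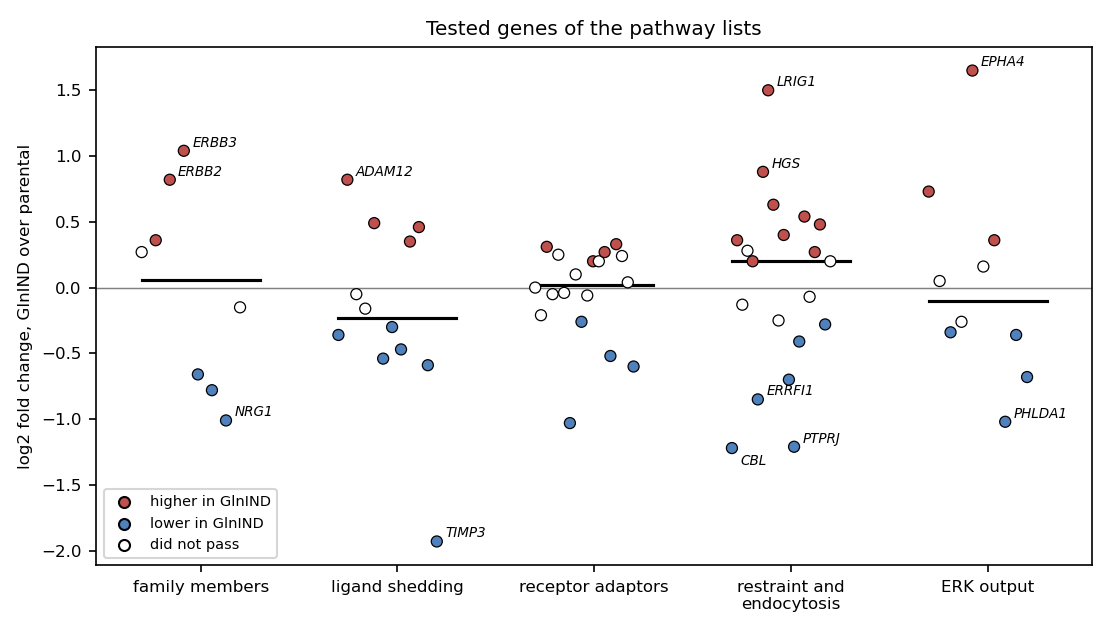
Log2 fold change (GlnIND over parental) of the 8 tested genes among the 9 family members and of each tested gene in 4 pathway lists. Red points rose, blue points fell, open points did not pass, and the bar is the list's median. The family ligands EGF (1.23) and NRG2 (1.36), which rose, are not shown. Every list holds genes of both directions, from TIMP3 at -1.93 to EPHA4 at 1.65.

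The genes whose log2 CPM followed each called gene most closely over the 6 libraries were also noted, as a description. They were PCDHB12 and ADD3 for EGFR, ANAPC15 and SHROOM2 for ERBB2, and NEGR1 and ANOS1 for ERBB3. They were AEBP2 and TWF1 for EREG, STX2 and UTP14A for HBEGF, and HES2 and ANKIB1 for NRG1. Pearson's r lay between 0.9986 for SHROOM2 and 0.9998 for AEBP2 and HES2. With 6 libraries in 2 groups such values are common: between 7.35% of genes with a mean of at least 1 CPM for EGFR and 15.3% for HBEGF had an r over 0.95.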

How the data were processed

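RNA of 3 GlnIND and 3 parental libraries was sequenced after oligo-dT enrichment with the Kapa mRNA HyperPrep kit, per the labels' protocols. The authors deposited unnormalised counts of reads for each gene symbol. FastQC, STAR, featureCounts, DESeq and the build hg19 are named in the submitters' processing notes. Versions, annotation, strand setting and treatment of multiply mapped reads are not given in the sources used here. Within each group the deposited matrix carries the values of the tables with replicates 1 and 3 exchanged, and the tables were used.

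Between 60.6% and 65.0% of genes under 20 counts had an even count, as when both ends of a pair are counted, so counting intervals (exact Clopper-Pearson, counting error only) used halved counts. The counts were tested with edgeR 4.0.16 (glmQLFit, glmQLFTest, two-sided; TMM; filterByExpr, minimum count of 10, minimum total of 15; group alone) in R 4.3.3 over 13949 genes with Benjamini-Hochberg adjustment at 0.05. SE came from the F statistic. Exact permutation tests used scipy 1.17.1.

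Alternatives were RLE, upper-quartile and total scaling, no filter, a stricter filter (at least 1 CPM in 3 libraries), leaving out each library, a block for the replicate number, DESeq2 1.42.0, halved counts and subtraction of the median of 40 neighbouring genes. Removal of a GC trend was added after the data had been seen. After either subtraction p came from a t distribution with the unchanged SE, so shift and trend were treated as known. Named genes were all 9 genes, the other genes of the family, from each list the up to 4 called genes with the largest change and a mean of at least 1 CPM, and 2 genes most like each called gene. The members and lists were chosen with earlier results of these data known. Some results are not reported here.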

Additional observations from a re-analysis of the deposited data

How the results depend on the processing

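The 6 called genes of the family kept their direction and their call under all 16 alternatives. Their log2 fold changes ranged from 0.30 to 0.61 for EGFR, 0.57 to 0.97 for ERBB2, 0.94 to 1.30 for ERBB3, -1.07 to -0.85 for NRG1, -0.88 to -0.63 for HBEGF and -0.76 to -0.41 for EREG, the last with the GC trend removed. Over all genes 7853 were called, and with 1 library left out between 6516 (without GlnIND 3) and 9280 (without parental 1). The median of all genes moved to 0.18 with library totals, where 65.6% of called genes were higher, against 50.5% with TMM and 59.7% with upper-quartile factors, and TGFA then stood at 0.01. ADAM17, not called, stood at 0.05 with the neighbour shift removed and 0.02 with the GC trend removed. With the neighbour shift removed, 5 genes of ligand shedding were called in place of 10, and 9 of receptor restraint in place of 15. The adaptor genes called numbered 6 to 13 with 1 library left out, the most without parental 1, against 8 with all. In all these cases the cause was not tested. The replicate numbers did not pair the libraries: deviations of same-numbered libraries correlated at -0.063, 0.03 and -0.037. With the replicate block 7303 genes and the same 6 genes of the family were called. AREG, ERBB4, EPGN, NRG3 and NRG4 lie near or below the floor of 6 counts, and the cause was not tested.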
